A study of Mus musculus with 8 samples.

Results

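The replication-dependent histone genes of mouse, 38 protein-coding genes of the Hist1, Hist2 and Hist3 clusters, were followed in cultured regulatory T cells (Tregs) with and without an inhibitor of fatty acid binding proteins. Members were all protein-coding genes whose GENCODE M21 symbol starts with Hist1h, Hist2h or Hist3h and whose counts summed to at least 80 over the 8 libraries. Of 53465 genes in the count tables, 66 protein-coding genes had such a symbol. The other 28 of those 66 lay under the count limit, 7 of them with no count in any library, and 3 matching pseudogenes were not taken. Nearest to the limit, Hist1h4a (71 counts), Hist2h4 (72) and Hist1h2bn (72) were left out, and Hist1h2bl (80), Hist1h2af (93) and Hist1h4k (100) were kept. By type the members were 5 of 6 H1 genes, 7 of 18 H2A genes, 11 of 18 H2B genes, 8 of 12 H3 genes and 7 of 12 H4 genes. By cluster they were 34 of 54 Hist1 genes on chromosome 13, 2 of 10 Hist2 genes on chromosome 3 and both Hist3 genes, on chromosome 11.

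CD4+ T cells of wild-type C57BL/6 mice, taken from spleen and peripheral lymph nodes, were polarized to Tregs with anti-CD3, anti-CD28, IL-2 and TGF-β and with blocking antibodies to IFN-γ, IL-4 and IL-12. At 72 hours the cultures were divided, and the 4 treated samples received 50 µM BMS309403, which blocks fatty acid binding proteins, while the 4 control samples received none. All 8 samples share the genotype, the strain and the polarizing conditions, so every difference below is between inhibitor and no inhibitor in cells already stimulated for 72 hours. A vehicle, the time from the split to harvest, and the age and sex of the mice are not given in the sources used here, and nothing says whether the samples of a group came from separate mice or cultures. The p-values therefore reflect only how far these samples spread, and that spread may be technical.

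Replication-dependent histones supply the protein that packages newly copied DNA, and their genes are switched on at the start of S phase and silenced when replication ends. H2A, H2B, H3 and H4 form the nucleosome core and H1 binds the linker DNA between nucleosomes. Their mRNAs normally carry no poly(A) tail: the transcript is cut by a complex that holds the U7 small nuclear RNA, just after a short stem-loop that is bound by the stem-loop binding protein SLBP, and the stem-loop then takes over the roles of a tail in translation and decay. Some of these genes are also known to make polyadenylated transcripts that run past the stem-loop, mainly in cells that divide little. The libraries were made with a stranded mRNA kit of the kind that selects poly(A) RNA, so the counts describe histone transcripts as captured in that way and not the whole histone mRNA of the cell.

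The stem-loop is shown here because it marks this class of mRNA and sorts the annotated transcripts used further on. A stem of 6 paired bases around a loop of 4 bases starting with TT was found within 150 bases after the stop codon in the GENCODE M21 transcripts of 25 of the 38 members, 24 to 46 bases after the stop codon. Of the other 13 members, 8 had no annotated sequence, or at most 20 bases, after the stop codon, and 5 had longer sequence without a match of this form. Of these 5, Hist2h3b has 37 annotated bases after the stop codon and Hist1h1a 48. A stem-loop at the distances found would not fit in the first and might not fit in the second. The windows below give 5 flanking bases on each side, 5′ to 3′ as DNA letters in GRCm38, with the paired stem in capitals.
Hist1h1c (chr13:23739507-23739532, plus strand): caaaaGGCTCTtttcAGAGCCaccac
Hist1h1e (chr13:23621777-23621802, minus strand): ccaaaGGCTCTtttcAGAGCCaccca
Hist3h2a (chr11:58955167-58955192, plus strand): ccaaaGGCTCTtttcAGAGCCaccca
Hist1h2bb (chr13:23747198-23747223, plus strand): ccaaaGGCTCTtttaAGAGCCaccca
Hist1h3c (chr13:23745042-23745067, minus strand): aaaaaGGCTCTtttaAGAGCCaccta
Hist1h4b (chr13:23757361-23757386, plus strand): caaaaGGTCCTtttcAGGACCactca
Hist1h4i (chr13:22040961-22040986, minus strand): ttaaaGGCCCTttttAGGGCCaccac
Only 5 versions of the 16 stem-loop bases occurred among the 25 members. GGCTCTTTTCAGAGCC was the commonest, with 14 members (3 H1, 4 H2A, 6 H2B and 1 H3), and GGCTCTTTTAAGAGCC was held by 5 members (2 H2B and 3 H3). The H4 genes had stems of their own, with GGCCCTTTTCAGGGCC in 4 members, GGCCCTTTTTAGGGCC in Hist1h4i and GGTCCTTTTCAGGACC in Hist1h4b. Hist1h1c and Hist1h1e carried the same stem-loop, and so did Hist3h2a, although the first and the last were higher in the treated libraries and Hist1h1e was lower.

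Library totals ranged from 32923433 to 44644485 counts in the control and from 38684721 to 42552943 counts in the treated group. The 38 histone genes were rare in them, with 2036 to 2876 counts a library, or 0.00561% to 0.00644% of all counts in the control and 0.00500% to 0.00586% in the treated libraries. Foxp3, the transcription factor that defines Tregs, was at 950.0 ± 55.6 CPM (SD, n = 4) in the control and 1247 ± 15.3 CPM in the treated libraries. It is 1 of 10 Treg and T cell markers on a list, of which 4 were called higher and 4 lower. Their log2 fold changes ran from -0.46 to 0.83, so Foxp3 does not stand for the list. CPM throughout are counts scaled in the usual way to the library total, after TMM adjustment of the totals. Samples of a group differed by more than counting noise, with a chi-square of 3.08 to 24.2 per degree of freedom between pairs of libraries, and each was counted as a replicate.

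More histone genes fell than rose with the inhibitor. Of 37 tested members (Hist1h2bl had too few counts), 11 fell and 3 rose at an adjusted p under 0.05, and 23 passed in neither direction. In the same fit, 18.1% of all 14443 genes tested were called lower and 18.7% higher (36.8% in either direction), beside 29.7% and 8.11% of the tested members. Fold changes below 0 were found for 31 of the 37 members, and the members' median log2 fold change was -0.42 against 0.01 over all genes tested. Among the 4728 genes in the members' range of mean expression (0.294 to 7.72 CPM), 13.4% were called higher and 12.1% lower, with a median of 0.01. Fold changes are log2 values of treated over control from the edgeR fit, given ± SE, and p-values were adjusted over all genes tested. These are bulk samples, in which fewer cells making histone mRNA and less histone mRNA per cell cannot be told apart.

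The 3 genes that rose were Hist1h1c, Hist1h2bc and Hist3h2a, an H1, an H2B and an H2A gene. The largest falls were those of Hist1h2bb, Hist1h1e, Hist1h2ab and Hist1h2ag. Control and treated libraries did not overlap in CPM for 7 members that were lower in the treated libraries and for 2 that were higher, beside 16.1% and 17.7% of all genes tested. The calls differed in how firmly they stood: Hist1h2bb, Hist1h1e, Hist1h2ag and Hist1h2bc kept theirs when each of the 8 libraries was left out in turn, and the other 10 of the 14 lost theirs in at least 1 such fit. The number called lower was 3 without control 2, 4 without treated 4, 5 without control 3, 5 without treated 2, 7 without control 1 and 7 without treated 3, and the number called higher was 1 without treated 2. The share of all genes called in these fits is not given here. A loss of calls particular to the histone genes and a loss over all genes therefore cannot be told apart. With the replicate number of the sample titles added to the model, 15 members were lower and 3 higher, beside 25.8% and 26.6% of all genes. Tested against a change of more than 1.2-fold, 3 members were lower and none higher, beside 4.89% and 6.06% of all genes.

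**Figure D1:**
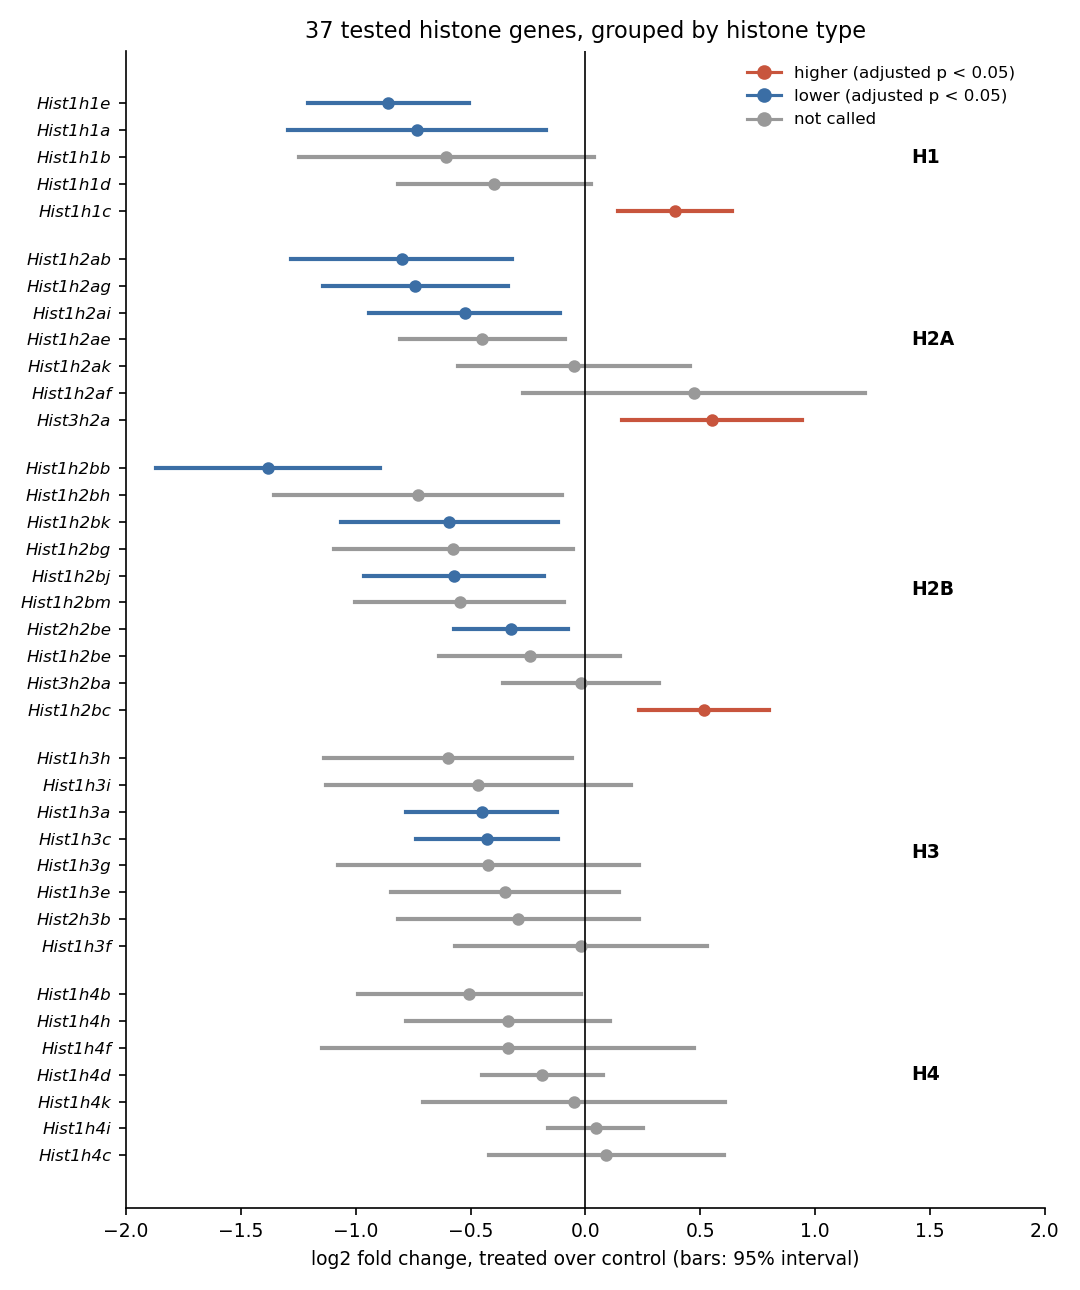
Log2 fold change, treated over control, of each of the 37 tested histone genes (points) with its 95% interval (bars), grouped by histone type; red marks genes called higher, blue those called lower and grey those not called at an edgeR adjusted p under 0.05. Points left of 0 are 31 of 37, the 3 red points are Hist1h1c, Hist3h2a and Hist1h2bc, and no H4 gene is coloured.

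Among the linker histones, the most abundant gene rose while 2 of the other 4 fell. Hist1h1c, the H1 gene with the highest level per length (4.37 RPKM over the 8 libraries), measured 6.78, 5.69, 6.04 and 5.14 CPM in the control libraries and 8.57, 7.96, 7.99 and 6.37 CPM in the treated libraries. The treated libraries were higher on average but treated 4 lay within the control range, and the fit gave a log2 fold change of 0.39 ± 0.11 (SE) and an adjusted p of 0.0189. Hist1h1e went the other way, at 1.15, 1.30, 1.37 and 1.22 CPM in the control libraries and 0.687, 0.789, 0.724 and 0.577 CPM in the treated libraries. Every treated library lay below every control library, with a log2 fold change of -0.86 ± 0.16 (SE) and an adjusted p of 0.00144. Part of its annotated exon sequence (496 bases) overlaps Hist1h2be on the same strand, so reads from the shared stretch could count for either gene, and its counts are uncertain to that extent. Hist1h1a was at 0.713, 0.854, 0.714 and 0.424 CPM in the control libraries and 0.407, 0.464, 0.466 and 0.288 CPM in the treated libraries. Control 4 lay within the range of the treated libraries and the other 3 controls above it, and the fit gave a log2 fold change of -0.73 ± 0.26 (SE) and an adjusted p of 0.0425.

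Hist1h1b, at 0.465, 0.494, 0.773 and 0.823 CPM in the control libraries and 0.661, 0.348, 0.362 and 0.312 CPM in the treated libraries, was not called (-0.61 ± 0.29, adjusted p = 0.128), and the first treated library stood above the other 3. Hist1h1d, the fifth H1 gene, was also not called (-0.40 ± 0.19, adjusted p = 0.128). The summed H1 level overlapped between the groups, at 9.15 ± 0.675 CPM in the control group and 9.75 ± 1.16 CPM in the treated group (SD, n = 4 each). Hist1h1c made up 64.5% ± 3.39 (SD) of the summed H1 CPM in the control libraries and 79.2% ± 0.398 in the treated libraries, while the share of Hist1h1e was 13.8% ± 1.40 and 7.14% ± 0.628. The call on Hist1h1c was lost without control 2, control 4 or treated 2 (adjusted p 0.0502 to 0.0561 there, and 0.000389 to 0.0561 over all 14 alternatives), and that on Hist1h1a without every library except control 4 (0.0572 to 0.144 there, 0.0106 to 0.144 over all).

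H2A genes fell in 3 of 7 cases and rose in 1. Hist1h2ab was at 0.806, 0.944, 0.803 and 0.624 CPM in the control libraries and 0.407, 0.348, 0.595 and 0.481 CPM in the treated libraries. Hist1h2ag measured 1.64, 1.30, 1.67 and 1.45 CPM in the control libraries and 1.14, 0.765, 1.01 and 0.697 CPM in the treated libraries. For both genes the 2 groups did not overlap, with log2 fold changes of -0.80 ± 0.22, adjusted p = 0.0143 and -0.74 ± 0.18, adjusted p = 0.00827. Hist1h2ai, the H2A gene with the highest level per length (4.68 RPKM), was at 2.14, 2.36, 2.20 and 1.97 CPM in the control libraries and 1.27, 1.28, 2.22 and 1.27 CPM in the treated libraries. The third treated library reached the control level while the other 3 lay close together below it, and the call (-0.53 ± 0.19, adjusted p = 0.0473) held without treated 3 but was lost without any other library (0.0518 to 0.129 there, 0.00212 to 0.129 over all 14 alternatives). Hist1h2ab lost its call without control 2 (adjusted p = 0.0551, and 0.0102 to 0.0551 over all alternatives).

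Hist3h2a, the H2A gene of the small cluster on chromosome 11, rose, at 1.30, 1.37, 0.833 and 1.25 CPM in the control libraries and 2.11, 1.72, 1.73 and 1.47 CPM in the treated libraries. The groups did not overlap, with a log2 fold change of 0.55 ± 0.18 (SE) and an adjusted p of 0.0312. Its call was lost without control 3, treated 1, treated 2 or treated 3 (0.0568 to 0.0859 there, 0.0110 to 0.0859 over all alternatives). A stretch of 708 bases, 33.0% of its annotated exons, is shared on the same strand with Trim17, a gene with 0 to 5 counts a library. Hist1h2ae measured 2.97, 2.56, 2.80 and 1.82 CPM in the control libraries and 2.04, 1.65, 2.04 and 1.68 CPM in the treated libraries and was not called (-0.45 ± 0.16, adjusted p = 0.0507). With the replicate number in the model its adjusted p was 0.00817, and over the 14 alternatives it was 0.00817 to 0.131. The remaining H2A genes, Hist1h2ak and Hist1h2af, were not called, with log2 fold changes of -0.05 (95% interval -0.55 to 0.46) and 0.47 (-0.27 to 1.22).

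H2B was the type with the most called genes, 4 lower and 1 higher of 10 tested. Hist1h2bb had the largest change of all members, at 1.27, 0.899, 0.922 and 0.748 CPM in the control libraries and 0.407, 0.325, 0.414 and 0.312 CPM in the treated libraries. Each treated library was below each control library and the log2 fold change was -1.38 ± 0.22, adjusted p = 0.000525, a level 2.60-fold lower. Hist1h2bj had the highest level per annotated length of the H2B genes (6.67 RPKM), though Hist2h2be had more CPM. Hist1h2bj measured 4.28, 3.53, 3.87 and 3.12 CPM in the control libraries and 3.28, 2.44, 2.53 and 1.68 CPM in the treated libraries. Treated 1 lay within the control range and the other 3 treated libraries below it (-0.57 ± 0.18, adjusted p = 0.0267). Hist1h2bk was at 2.04, 1.37, 1.16 and 1.52 CPM in the control libraries and 1.35, 0.765, 0.983 and 0.937 CPM in the treated libraries. Here too treated 1 fell within the control range (-0.59 ± 0.22, adjusted p = 0.0493).

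Hist2h2be, the H2B gene on chromosome 3 with a long annotated transcript, was at 4.40, 5.17, 5.86 and 5.79 CPM in the control libraries and 3.89, 4.59, 4.55 and 3.94 CPM in the treated libraries. The groups overlapped slightly, and the fall was the smallest that was called (-0.32 ± 0.11, adjusted p = 0.0438). Hist1h2bc moved in the opposite direction, at 2.11, 2.74, 2.44 and 2.17 CPM in the control libraries and 3.84, 3.18, 3.59 and 2.98 CPM in the treated libraries. All treated libraries lay above all control libraries (0.52 ± 0.13, adjusted p = 0.00884). Hist3h2ba, the H2B neighbour of Hist3h2a, stayed close to 0 in the fit, with 0.991, 1.10, 0.863 and 1.15 CPM in the control libraries and 0.967, 1.04, 0.957 and 1.11 CPM in the treated libraries and a log2 fold change of -0.02 (95% interval -0.36 to 0.32). Of the genes not called, Hist1h2bh (-0.73), Hist1h2bg (-0.57) and Hist1h2bm (-0.55) had log2 fold changes within the range of the H2B genes called lower, with adjusted p-values of 0.0660, 0.0787 and 0.0585, and Hist1h2be was at -0.24. Hist1h2bh and Hist1h2bm were called lower with the replicate number in the model (adjusted p = 0.0171 and 0.0239, with 0.0171 to 0.205 and 0.0239 to 0.161 over the alternatives). The call on Hist1h2bj was lost without control 2, control 3, treated 2, treated 3 or treated 4 (0.0505 to 0.0679), that on Hist1h2bk without every library except control 3 and treated 1 (0.0697 to 0.139), and that on Hist2h2be without every library except control 1 (0.0536 to 0.124). Over all 14 alternatives these 3 genes had adjusted p-values of 0.000427 to 0.0679, 0.00549 to 0.139 and 0.00871 to 0.124.

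All 8 H3 genes had fold changes below 0, and 2 of them passed the test. Hist1h3c, the most abundant H3 gene (8.44 RPKM), measured 6.29, 6.79, 6.28 and 5.04 CPM in the control libraries and 5.22, 4.41, 5.15 and 3.39 CPM in the treated libraries. The ranges overlapped, since control 4 lay below treated 1 and treated 3, and the log2 fold change was -0.43 ± 0.14, adjusted p = 0.0340. Hist1h3a was at 2.94, 2.58, 2.77 and 1.95 CPM in the control libraries and 1.70, 1.95, 2.09 and 1.71 CPM in the treated libraries. Control 4 was again the lowest of its group, at the level of treated 2 (-0.45 ± 0.15, adjusted p = 0.0347). Hist1h3h measured 0.651, 1.06, 0.625 and 0.574 CPM in the control libraries and 0.509, 0.371, 0.491 and 0.577 CPM in the treated libraries and was not called (-0.60 ± 0.25, adjusted p = 0.0792), with control 2 standing above the other libraries. Hist2h3b, the H3 member on chromosome 3, was at 0.465, 0.517, 0.446 and 0.349 CPM in the control libraries and 0.331, 0.302, 0.414 and 0.409 CPM in the treated libraries (-0.29 ± 0.24, adjusted p = 0.370), and all of its exon sequence lies under an antisense gene, Gm20628, with 0 to 5 counts a library. The other 4 H3 genes ranged from -0.47 (Hist1h3i) to -0.02 (Hist1h3f) and were not called. Hist1h3c lost its call without control 2, control 3, treated 2 or treated 4 (0.0796 to 0.102 there, 0.000742 to 0.102 over all 14 alternatives), and Hist1h3a kept its call only without control 4 or treated 3 (0.0621 to 0.0916 elsewhere, 0.00795 to 0.0916 over all).

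**Figure D2:**
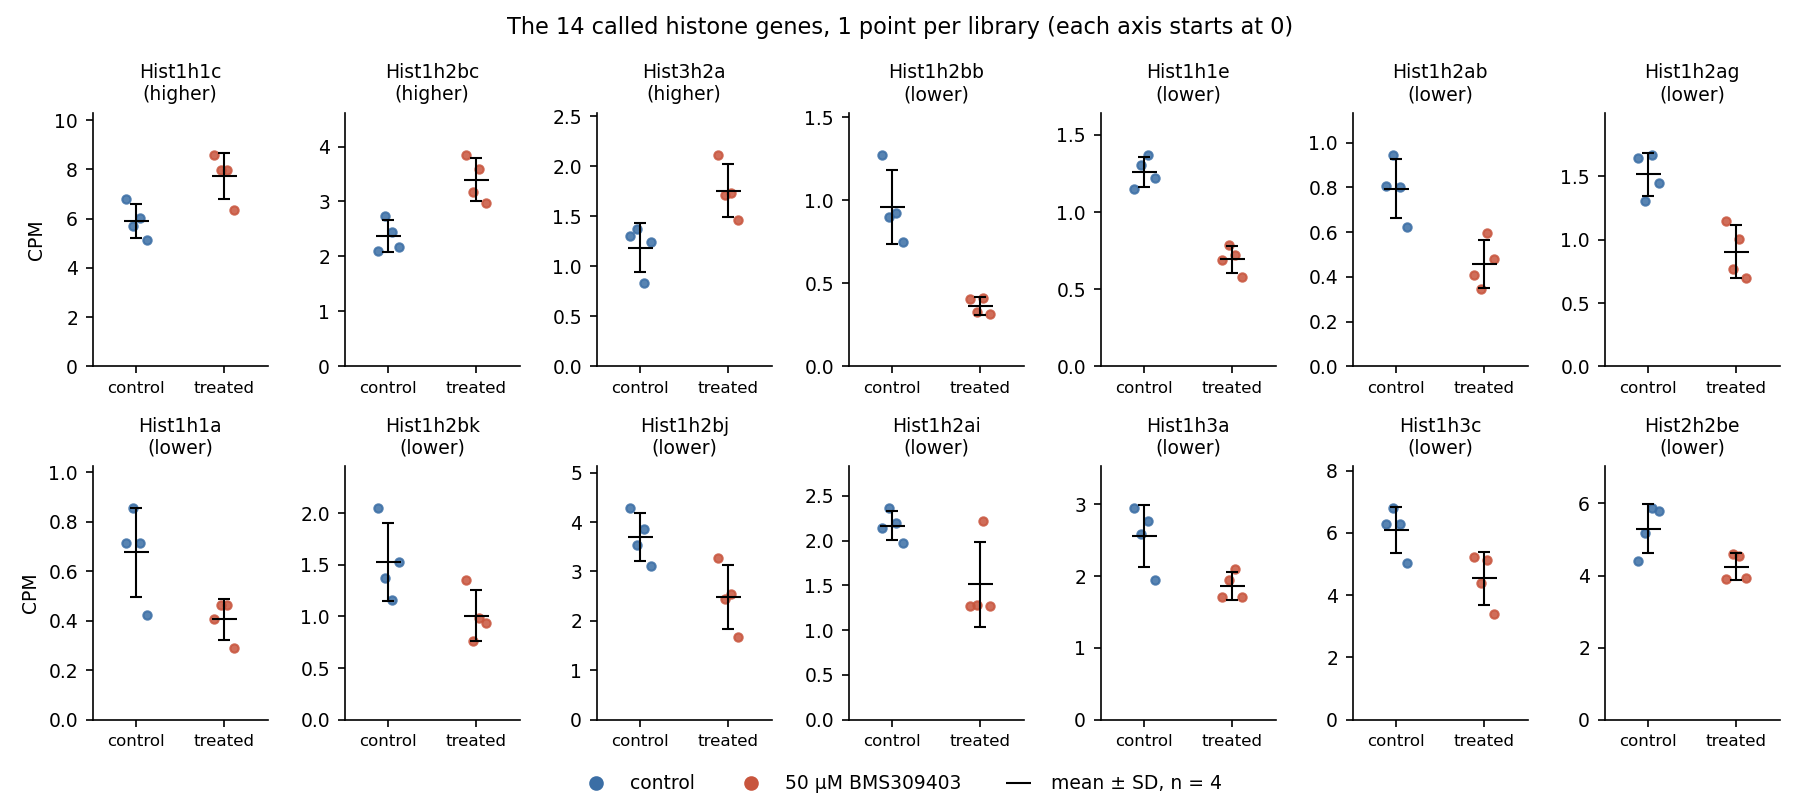
TMM-scaled CPM (vertical axes, each from 0) of the 14 called histone genes in the 4 control (blue) and 4 treated (red) libraries, 1 point per library, with the mean ± SD in black. The 3 genes that rose come first; Hist1h2bb, with 0.748 to 1.27 CPM in control and 0.312 to 0.414 CPM in treated libraries, shows the widest gap, and Hist1h2ai has 1 treated library at the control level.

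None of the 7 H4 genes was called in either direction, although 1 of them had an unadjusted p under 0.05. Hist1h4i had the highest level per length of all histone genes (10.6 RPKM) and measured 7.78, 8.27, 7.53 and 6.81 CPM in the control libraries and 7.96, 6.70, 8.48 and 8.22 CPM in the treated libraries. The ranges overlapped almost fully, and its log2 fold change of 0.04 had a 95% interval of -0.16 to 0.25. Hist1h4d was at 1.89, 2.02, 1.99 and 2.07 CPM in the control libraries and 1.73, 1.72, 1.94 and 1.63 CPM in the treated libraries, with a log2 fold change of -0.19 (95% interval -0.45 to 0.07). Hist1h4b was at 1.36, 0.989, 1.25 and 0.998 CPM in the control libraries and 0.840, 0.487, 1.01 and 0.889 CPM in the treated libraries. Its log2 fold change was -0.50 ± 0.22, adjusted p = 0.0958, and with the replicate number in the model it was called lower (adjusted p = 0.0310, and 0.0310 to 0.239 over the 14 alternatives). DESeq2 and limma-voom called no H4 gene either. The remaining H4 genes lay between -0.34 (Hist1h4h) and 0.09 (Hist1h4c).

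Sequence likeness limits how far single genes can be told apart. The 7 H4 members encode 1 protein from coding sequences that are 92.3% to 96.5% identical, the 8 H3 members encode 2 proteins, the 7 H2A members 4, the 11 H2B members 8 and the 5 H1 members 5. For 21 members the closest other member is over 97% identical in the coding sequence, among them Hist1h2bc and Hist1h2bj (99.0%), of which 1 rose and the other fell. How reads that match several copies were counted is not stated in the sources used here, so the values of these genes are uncertain where a read fits more than 1 gene. Of the 14 called genes, Hist1h1a, Hist1h1c, Hist1h1e, Hist1h2bb, Hist2h2be and Hist3h2a have no other member above that identity. Only members were compared. The 28 genes under the count limit and the 3 pseudogenes were not, so these genes are not shown to be free of shared reads and the 21 is a lower bound.

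Summed over all 38 genes, histone CPM dropped by 13.1% on average in the treated group, and the groups overlapped. The sums were 65.2, 64.6, 63.6 and 56.0 CPM in the control and 57.9, 51.4, 58.7 and 48.9 CPM in the treated libraries, or 62.4 ± 4.30 CPM in the control group and 54.2 ± 4.79 CPM in the treated group (SD, n = 4 each). Control 4 had the lowest control sum and lay below treated 1 and treated 3. A group of 6 genes (Hist1h4i, Hist1h1c, Hist1h3c, Hist2h2be, Hist1h2bj and Hist1h2bc) held 52.6% of all member counts, so the sum follows those more than the rest. H2B was the only type whose summed level did not overlap between groups, at 18.6 ± 0.445 CPM in the control group and 15.2 ± 1.50 CPM in the treated group. H2A was at 9.07 ± 0.963 CPM in the control group and 7.41 ± 0.865 CPM in the treated group. H3 was at 12.8 ± 1.68 CPM in the control group and 9.66 ± 1.06 CPM in the treated group, and H4 at 12.8 ± 0.863 CPM in the control group and 12.3 ± 0.982 CPM in the treated group. Between libraries with the same number in their titles, the treated library had the lower sum in all 4 pairs for the 38 genes together and for H2A, H2B and H3, in 2 of 4 pairs for H4 and in 1 of 4 for H1. No test was run on these sums.

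By cluster, the large Hist1 cluster had 2 genes higher and 10 lower of 33 tested, and its median log2 fold change was -0.45. Hist2 had 1 of 2 lower (median -0.31), and Hist3 had 1 of 2 higher (median 0.27). The summed level of the 2 Hist3 genes was 2.21 ± 0.353 CPM in the control group and 2.78 ± 0.217 CPM in the treated group, with no overlap between the groups. It was the only cluster sum that was higher in the treated group, since Hist1 was at 54.4 ± 4.74 CPM in the control group and 46.8 ± 4.62 CPM in the treated group and Hist2 at 5.75 ± 0.645 CPM in the control group and 4.61 ± 0.376 CPM in the treated group. The difference between the clusters was not tested.

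**Figure D3:**
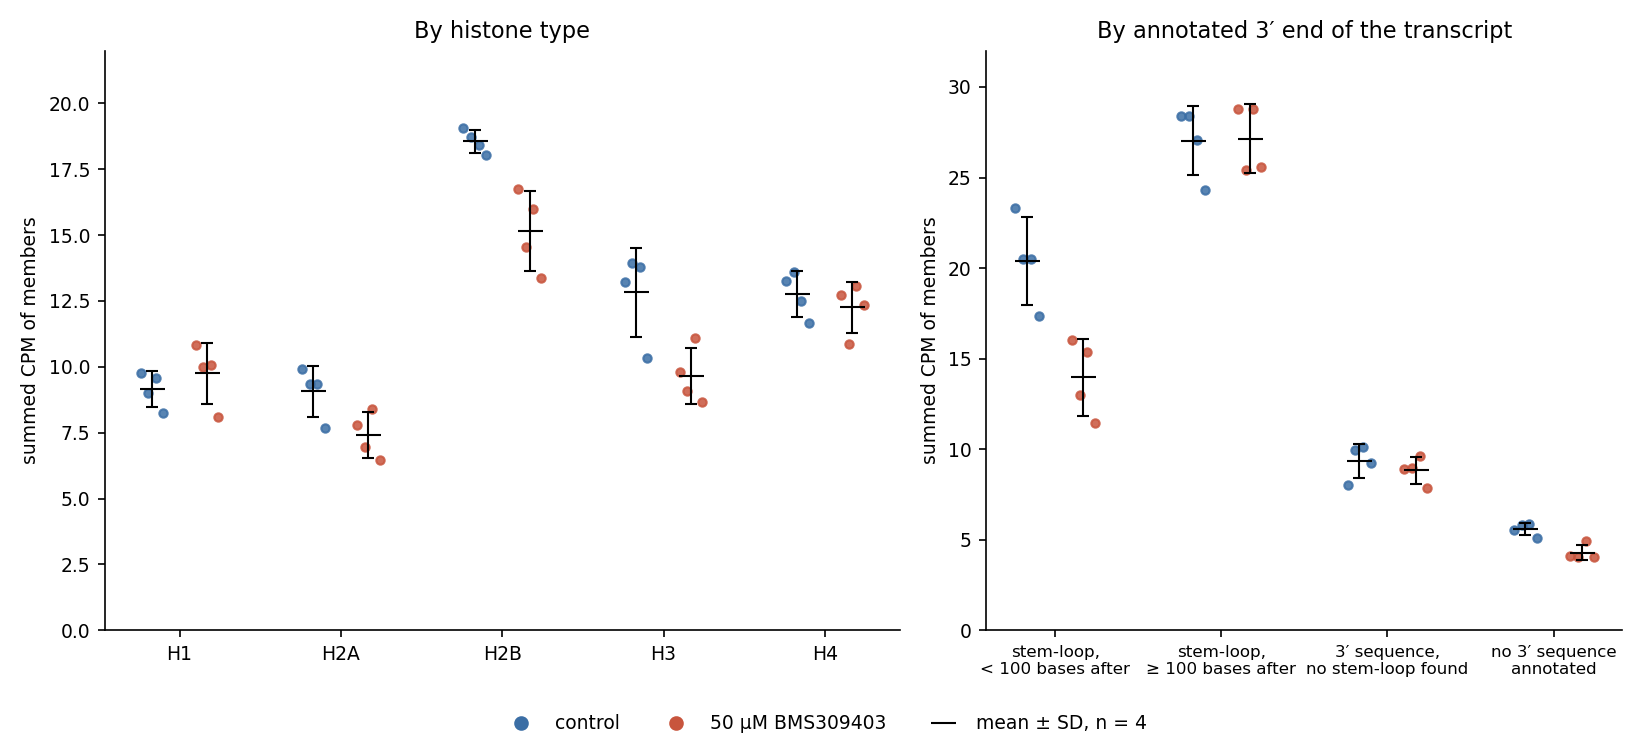
Summed TMM-scaled CPM of the histone genes in each library (points; blue control, red treated; mean ± SD in black, n = 4), on the left by histone type and on the right by the annotated 3′ end of the transcript. The H2B sums do not overlap (18.0 to 19.1 against 13.4 to 16.7 CPM), and on the right the genes whose annotation stops soon after the stem-loop are at 17.3 to 23.3 against 11.5 to 16.1 CPM while those with a longer annotated end overlap; the genes with no annotated 3′ sequence do not overlap either.

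The members also differ in how far their annotated transcripts run past the stem-loop, which the choice of members did not use. In 11 members the GENCODE transcript stops 11 to 74 bases after the stem-loop, in 14 it runs 151 to 4884 bases further, in 8 it stops at the stop codon or within 20 bases of it, and in 5 no stem-loop of the form above was found. Of the 11 genes with the short end, 7 fell, none rose and all 11 had fold changes below 0, with a median of -0.55. Of the 14 genes with a longer end, 2 rose (Hist1h1c and Hist3h2a) and 1 fell (Hist1h1e). Fold changes were below 0 for 10 of these 14 and above 0 for 4, with a median of -0.21. The 7 tested genes with no annotated 3′ sequence had 1 lower and a median of -0.47, and the 5 without a stem-loop match had 1 higher, Hist1h2bc, and 2 lower, Hist1h1a and Hist2h2be. The annotated transcript of Hist1h2bc is spliced into a second exon soon after its stop codon.

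Summed by this annotation, the genes with a short end were at 23.3, 20.5, 20.5 and 17.3 CPM in the control and 16.1, 13.0, 15.4 and 11.5 CPM in the treated libraries. No treated library reached the lowest control library, and the mean dropped by 31.5%. Genes with the longer end summed to 28.4, 28.4, 27.1 and 24.3 CPM and 28.8, 25.4, 28.8 and 25.6 CPM, with a difference of 0.342% between the means and overlapping groups. Of these sums, Hist1h4i made up 7.60 ± 0.608 CPM in the control and 7.84 ± 0.788 CPM in the treated group (SD, n = 4). Hist1h1c, which was called higher, made up 5.91 ± 0.689 and 7.72 ± 0.945 CPM. Fold changes were below 0 for 10 of these 14 genes and above 0 for 4, so the level sum hides changes in both directions. The 8 genes with no annotated 3′ sequence also did not overlap between the groups, at 5.55, 5.82, 5.86 and 5.11 CPM in the control and 4.12, 4.04, 4.94 and 4.06 CPM in the treated libraries, and their mean dropped by 23.2%. The 5 genes without a stem-loop match overlapped, and their mean dropped by 5.46%. A canonical poly(A) signal (AATAAA or ATTAAA) stood within 40 bases of the annotated end in 8 members, of which 2 were called higher and 1 lower (median log2 fold change -0.13). The 29 tested members without such a signal had 1 higher and 10 lower, with a median of -0.47. The grouping by annotated end was set up after the data were seen, annotated ends are not the ends of the transcripts in these cells, and no test of the difference between the groups was made.

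**Figure D4:**
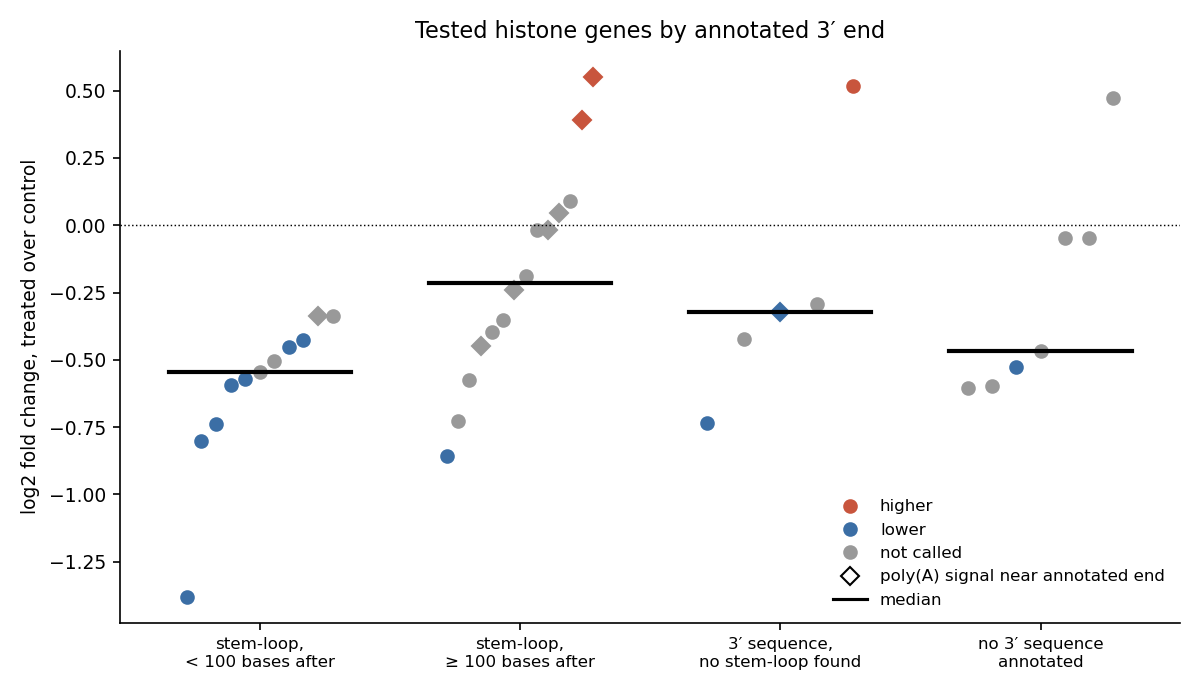
Log2 fold change, treated over control, of the 37 tested histone genes in 4 groups by annotated 3′ end (horizontal axis), each point a gene ordered by its value, with the group median as a black line; red is called higher, blue called lower, grey not called, and diamonds mark a poly(A) signal near the annotated end. All 11 genes of the first group lie below 0 (median -0.55), and the 14 of the second group run from -0.86 to 0.55 (median -0.21).

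Promoter sequence was compared for the 34 members with an entry in the RefSeq promoter table (GRCm38.p6). Hist1h2bc, Hist2h2be, Hist1h3a and Hist1h3f had no entry. In the 250 bases before the start site, on either strand, the CCAAT box occurred in 29 of 34 members (85.3%) and in 33.8% of all 32851 promoters of that length. It was present in each H1, H2A, H2B and H3 promoter examined and in 2 of 7 H4 promoters. The TATA box letters TATAAA were found in 16 members (47.1%, against 12.4% of all promoters). The octamer ATTTGCAT, bound by POU-domain factors such as Oct-1, stood in 8 members, 5 H2B and 3 H2A (23.5%, against 1.60%), and the H1 box AAACACA in 6 members, 4 of them H1 (17.6%, against 6.25%). None of the 4 motifs contains another. The 250-base stretches of head-to-head genes overlap, as in Hist1h2ae with Hist1h2bg, Hist1h2ag with Hist1h2bj and Hist1h2ai with Hist1h2bl. A site in the overlap counted for both genes, and Hist1h2ae and Hist1h2bg shared 1 octamer and 1 TATAAA in this way. The counts are therefore of genes and not of separate sites. A match is a string of letters and no measure of binding.

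The promoters of 4 members are shown, those of the linker histone genes that moved in opposite directions and those of the H2B gene with the largest fall and the H2A gene with the largest rise. Each is the 120 bases up to the start site, 5′ to 3′ on the gene's strand, with matches to the 4 motifs on either strand in capitals.
Hist1h1c (chr13:23738687-23738806, plus strand): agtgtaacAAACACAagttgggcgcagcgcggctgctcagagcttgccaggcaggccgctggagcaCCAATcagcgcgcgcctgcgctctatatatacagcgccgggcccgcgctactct
Hist1h1e (chr13:23622559-23622678, minus strand): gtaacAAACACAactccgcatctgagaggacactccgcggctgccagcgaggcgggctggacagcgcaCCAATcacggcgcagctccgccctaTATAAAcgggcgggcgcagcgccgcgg
Hist1h2bb (chr13:23746614-23746733, plus strand): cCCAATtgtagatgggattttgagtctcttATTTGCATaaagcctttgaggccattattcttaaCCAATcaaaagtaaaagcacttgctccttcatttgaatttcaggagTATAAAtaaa
Hist3h2a (chr11:58954565-58954684, plus strand): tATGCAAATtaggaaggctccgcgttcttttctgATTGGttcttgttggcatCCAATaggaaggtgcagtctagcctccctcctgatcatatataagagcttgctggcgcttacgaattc
Hist1h1c and Hist1h1e both hold the H1 box and, closer to the start site, a CCAAT box, and Hist1h1e has TATAAA where no such match stands in the stretch of Hist1h1c. Hist1h2bb and Hist3h2a each hold an octamer and 2 CCAAT matches in the stretch shown. The CCAAT box stood in each of the called genes that had a promoter entry, with 2 higher and 9 lower of 28 tested (median log2 fold change -0.46), and none of the 5 genes without it, all H4, was called. Of the 8 octamer genes 1 was higher and 3 lower (median log2 fold change -0.56), and of the 6 H1 box genes 1 was higher and 2 lower (median -0.58). The 16 genes with TATAAA had none higher and 5 lower (median -0.52), and the 17 tested genes without it had 2 higher and 4 lower (median -0.35). Those 2 higher genes, Hist1h1c and Hist3h2a, hold the letters tatata in the stretches shown, which the exact match did not count. Matches to TATAAA also counted wherever they stood in the 250 bases, as at position -250 in Hist1h4f. The split by TATAAA therefore does not sort genes with a TATA box from genes without one. The counts by motif were not tested, and a site shared by head-to-head genes counted for both.

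Histone genes often stand head to head, sharing 1 stretch of DNA between their start sites. Among the 66 protein-coding genes 12 such pairs lay within 500 bases, and in 3 of them both genes were members. Hist1h2ag and Hist1h2bj, 269 bases apart, both fell (-0.74 and -0.57). Hist1h2ae and Hist1h2bg, 175 bases apart, were both below 0 and not called (-0.45 and -0.57). Hist1h2ai fell (-0.53) and its partner Hist1h2bl, 278 bases away, was not tested. In other pairs the captured counts were very unequal: Hist1h2bc had 910 counts over the 8 libraries beside 61 of Hist1h2ac, Hist2h2be 1492 beside 70 of Hist2h2ac, and Hist1h2bk 390 beside 29 of Hist1h2ah.

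Among genes that transcribe, process and degrade histone mRNA, 9 of 31 tested fell (29.0%) and none rose, with a median log2 fold change of -0.07. In the same fit, 18.1% of all genes tested were lower and 18.7% higher. At an unadjusted p under 0.05 the list had 14 genes, 1 of them higher. Ccne1 and Ccne2, both called lower, also stand on the S phase list below, so both counts include them. Slbp, whose protein binds the stem-loop, fell from 139.6 ± 4.95 CPM (SD, n = 4) to 111 ± 5.42 CPM, with a log2 fold change of -0.33 ± 0.05 (SE) and an adjusted p of 0.000156 and no overlap between the groups. Ccne1, which encodes the cyclin that activates histone transcription through NPAT, fell as well (-0.39 ± 0.05, adjusted p = 0.000118). Zfp473, a zinc-finger protein of the U7 complex, and Snrpe, a ring protein shared by the U7 and the splicing particles, also fell (-0.35 and -0.33). Npat itself, the histone gene coactivator, was at 59.6 ± 2.49 CPM and 62.3 ± 3.19 CPM and was not called (0.06 ± 0.05, adjusted p = 0.329). With the replicate number in the model, 14 genes of the list were lower and 1 higher, Mif4gd, which binds SLBP in translation and was named after its values were seen (adjusted p = 0.00273, and 0.00273 to 0.261 over the 14 alternatives).

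Histone chaperones moved in both directions, with 10 of 28 lower (35.7%) and 4 higher (14.3%), beside 18.1% and 18.7% of all genes tested (median -0.08). Daxx, a chaperone of the replacement histone H3.3, rose 2.03-fold, from 104 ± 4.22 CPM to 209.8 ± 8.54 CPM (1.02 ± 0.04, adjusted p = 1.71e-08). Ipo4, which imports H3 and H4, rose by 0.36, Cabin1, a subunit of the HIRA complex, by 0.28 and Atrx, the partner of Daxx, by 0.23 on the log2 scale. Asf1b, which hands new H3 and H4 to the replication machinery, fell (-0.38 ± 0.05, adjusted p = 0.000204), and so did Hjurp, the chaperone of the centromeric H3 (-0.29). The call on Atrx was lost without control 1, control 2, control 3, treated 2 or treated 4 (adjusted p 0.0591 to 0.103 there, 9.69e-05 to 0.103 over all alternatives).

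Genes listed as replacement histone variants with polyadenylated mRNA fell in 7 of 11 tested cases (63.6%), beside 18.1% of all genes tested. None rose, beside 18.7% of all genes tested, and the median was -0.20, with no gene higher at an unadjusted p under 0.05. Whether each of their mRNAs carries a tail was not examined. H1fx, a linker histone variant, had the largest fall (27.7 ± 5.51 CPM to 18.0 ± 1.22 CPM; -0.62 ± 0.12, adjusted p = 0.00172), followed by Cenpa, the centromeric H3 (244 ± 10.7 CPM to 167 ± 2.82 CPM; -0.55 ± 0.04, adjusted p = 1.22e-06). H2afv (-0.40), H3f3a (-0.30), H2afx (-0.17) and H2afz (-0.17) fell too. The 2 genes for H3.3 differed in their calls: H3f3a was lower (adjusted p = 0.00568) while H3f3b, at 671 ± 43.1 CPM and 678 ± 26.2 CPM, was not called (0.02 ± 0.05, adjusted p = 0.844). The difference between the 2 genes was not tested. The calls on H2afx and H2afz were each lost without control 1, control 2, control 3, treated 2, treated 3 or treated 4 (adjusted p 0.0730 to 0.131 and 0.0538 to 0.105 there, 0.000326 to 0.131 and 0.000863 to 0.105 over all alternatives).

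Of the genes of S phase, when histone mRNA is made, 27 of 39 fell (69.2%) and none rose, beside 18.1% and 18.7% of all genes tested. Fold changes were below 0 for 35 of them, and the median was -0.19. A share among genes of similar level was not taken for this or the other lists. At an unadjusted p under 0.05, 1 gene was higher; this was Rfc3, a clamp loader subunit named after its values were seen, which was called higher with the replicate number in the model (adjusted p = 0.0116, and 0.00297 to 0.211 over the 14 alternatives). Rrm2, a subunit of ribonucleotide reductase, fell from 347 ± 27.9 CPM to 246 ± 26.0 CPM (-0.49 ± 0.08, adjusted p = 0.000346), and Ccna2, the S phase cyclin A, from 399 ± 3.57 CPM to 298 ± 18.2 CPM (-0.42 ± 0.05, adjusted p = 2.78e-05). Rrm1 (-0.39) fell by as much as Ccne1. Left out in turn, treated 2 lowered the number of S phase genes called lower to 16, and the other libraries kept it within 1.5 times the full count. The share of all genes called in those fits is not given here. The part of the S phase genes in the histone values was not tested.

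**Figure D5:**
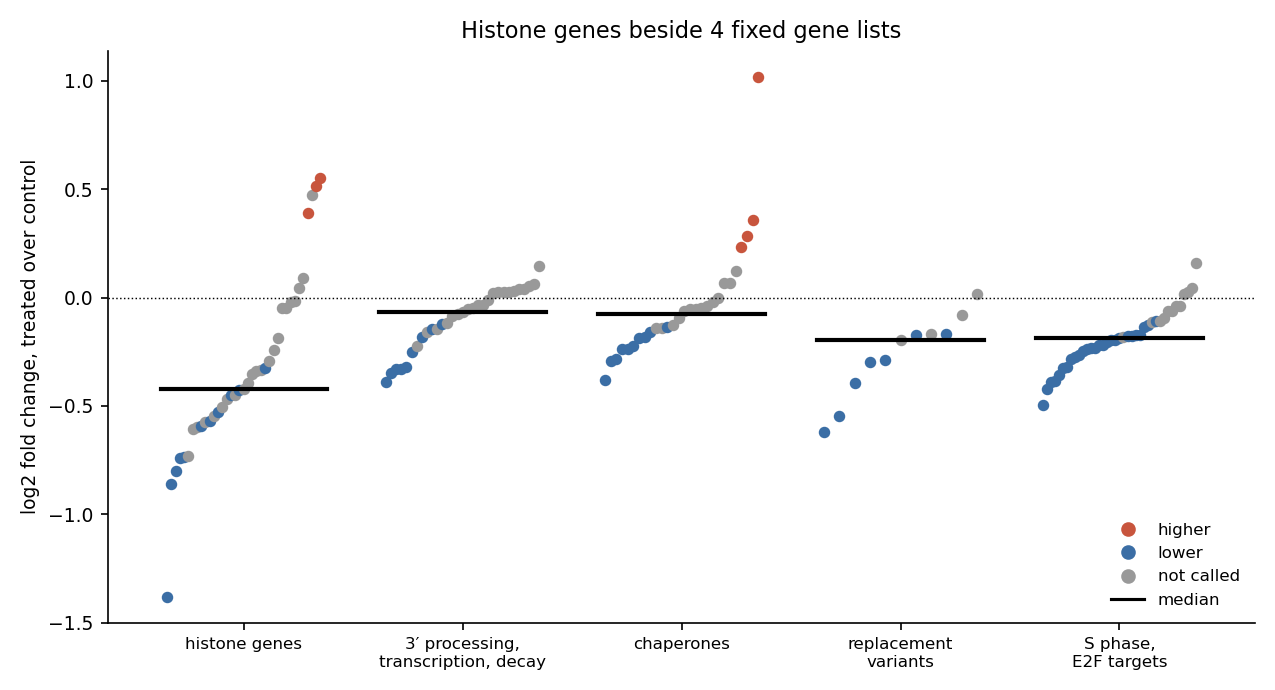
Log2 fold change, treated over control, of each tested gene (points ordered by value; red called higher, blue called lower, grey not called) for the 37 histone genes and 4 gene lists, with each median as a black line. The histone genes have the lowest median (-0.42) and spread from -1.38 to 0.55, and the S phase genes lie between -0.49 and 0.16.

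An RNA that carries no poly(A) tail was higher in the treated libraries. Of 15 such RNAs on a list, 1 had enough counts to be tested, Rn7sk, the RNA of the 7SK particle, which was at 0.688 ± 0.151 CPM (SD, n = 4) in the control and 2.87 ± 0.521 CPM in the treated libraries, 4.12-fold higher (2.04 ± 0.19, adjusted p = 8.18e-06). Summed, the 15 RNAs were at 0.682 to 1.12 CPM in the control and 2.60 to 3.99 CPM in the treated libraries, with Rn7s6, Rmrp and Rpph1 at 0, and Rn7sk made up most of both sums. A rise of this RNA and a change in its capture cannot be told apart here. Their part in the histone values was not tested.

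Marker genes of other cells were low throughout. Of the Treg and T cell markers 4 of 10 rose and 4 fell, beside 18.7% and 18.1% of all genes tested. The summed B cell markers (6 genes, 1 called lower) were at 6.86 to 10.7 CPM in control and 5.77 to 9.16 CPM in treated libraries, and the myeloid markers (8 genes, 3 tested, 1 lower) at 4.49 to 6.42 and 3.15 to 6.21 CPM. The dendritic cell markers (5 genes, 2 tested, 1 higher) were at 3.93 to 4.42 and 8.17 to 11.5 CPM, most of it Zbtb46 (3.60 ± 0.252 CPM and 8.89 ± 1.68 CPM), and the NK cell markers (4 genes, 1 tested, higher) at 1.37 to 2.97 and 2.71 to 5.14 CPM, with Ncr1 at 0. The 2 CD8 genes were at 9.89 to 14.3 and 10.2 to 14.9 CPM, and the erythroid genes (5, none tested) at 0.274 to 0.565 and 0.181 to 0.356 CPM, with Hbb-bs and Hba-a2 at 0. The part of these cells in the histone values was not tested.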

How the data were processed

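RNA-seq of 8 mouse Treg cultures (4 control, 4 with 50 µM BMS309403) was analysed from the count tables the authors deposited, which hold raw read counts per Ensembl gene, whole and not normalized, 1 table a library. Per the submitters' processing notes, STAR, featureCounts, DESeq2 and deepTools and the build GRCm38 were used; versions, annotation release, strand setting and the handling of multi-mapping reads are not given in the sources used here, and 53360 of 53465 IDs matched GENCODE M21. Per the labels' protocols, libraries came from a stranded mRNA kit.

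Control and treated libraries were compared with edgeR 4.0.16 (R 4.3.3): filterByExpr, TMM scaling, quasi-likelihood F-test with treatment alone in the model (residual df 6), Benjamini-Hochberg adjustment over 14443 genes, threshold 0.05. The SE is the one that gives the test's p with its total degrees of freedom, and intervals are at 95%. The procedure was tested on simulated data; it missed part of the changed genes, more of those with small changes, and did not meet a first limit on that share, so limits on bias and false calls were used instead. A member not called is therefore not shown to be unchanged. RPKM are CPM divided by kilobases of merged exons. These lengths are those of the annotation, so the order of genes by RPKM can differ from that by CPM. Hist1h2bj, for example, was above Hist2h2be in RPKM but below it in mean control CPM (3.70 and 5.30). Totals of 32923433 to 44644485 counts a library leave 80 to 2417 counts a member over 8 libraries, which sets the width of the intervals. Samples with the same number in their titles deviated together from their group means (r = 0.384, 0.145, 0.106 and 0.264 over genes, beside -0.289 to 0.208 for different numbers). The 0.208 of control 4 with treated 2 exceeded the 0.145 and 0.106 of same numbers, so the pairing is uncertain. Numbers were used as pairs only in the replicate block and in the comparison of sums by title number. The main fit, which gave the calls, SEs and intervals, left them out. Alternatives were DESeq2 1.42.0, limma-voom 3.58.1, DESeq2 size factors, library totals, no filter, the replicate block, a test against a 1.2-fold change, a 400-count membership limit and leaving out each library.

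Members, lists and tests were chosen with earlier results of these data known, and the 3′ end groups, the loop condition and the promoter start choice after the data were seen. Named members are, in each histone type, the 3 with the highest RPKM and the 3 called with the largest change, plus all Hist2 and Hist3 members; from each list, up to 4 called genes by size of change, with Slbp, Npat, H2afx, H2afz, H3f3a and H3f3b always. Other genes are named to complete a count or a group of 5 or fewer, because a replicate block or a left-out library changed their call, or because a sequence or a neighbour is shown. Stem-loops come from GENCODE M21 transcripts and promoters from RefSeq (GRCm38.p6). The fixed lists are 3′ processing, transcription and decay, chaperones, replacement variants, S phase, RNAs without a poly(A) tail and markers of Treg and T, B, myeloid, CD8 T, NK, dendritic and erythroid cells. Zcchc6 and Zcchc11 of the first list did not match an ID. Ccne1 and Ccne2 stand on both the first and the S phase list, and Mcm2 on both the chaperone and the S phase list.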

Additional observations from a re-analysis of the deposited data

Results flagged for a closer look

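In 7 of 102 checks of a group of 4 libraries, 1 library stood apart from the other 3, so that its gap to the nearest of them filled most of the group's range; chance gives such a result in about 1 of 20 groups. Treated 3 had 2.22 CPM of Hist1h2ai, the only called gene among these, beside 1.27 to 1.28 CPM in the other treated libraries. The same library held the summed CPM of the 8 genes with no annotated 3′ sequence at 4.94, beside 4.04 to 4.12, and Hist1h2ai is 1 of those 8. Control 2 had 0.989 CPM of Hist1h2bh (others 0.674 to 0.684) and 1.06 CPM of Hist1h3h (others 0.574 to 0.651). Treated 1 had 0.661 CPM of Hist1h1b (others 0.312 to 0.362) and 1.02 CPM of Hist1h4c (others 0.603 to 0.673). Treated 2 had 0.557 CPM of Hist1h4f (others 0.181 to 0.229). The cause was not tested.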

How the results depend on the processing

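No called direction turned under any alternative tried. The histone genes called numbered 3 higher with size factors, library totals, DESeq2, limma-voom, no filter or the replicate block, and 8 to 15 lower (12, 8, 11, 10, 10 and 15 in that order). Tested against a change of more than 1.2-fold, 0 were higher and 3 lower, beside 6.06% and 4.89% of all genes. With membership at 400 or more counts, 3 were higher and 5 lower of 11 tested, beside 18.7% and 18.1% of all genes tested. All 3 genes called higher were thus among these 11, so the low share called higher over all 37 tested members does not hold for them. A share among all genes with as many counts was not taken. Without each library in turn, 1 to 3 were higher and 3 to 9 lower, and the share of all genes called in those fits is not given here. The replicate block gave 26.6% of all genes higher and 25.8% lower, added the calls of Hist1h2ae, Hist1h2bh, Hist1h2bm and Hist1h4b, and raised the 3′ processing list to 1 higher and 14 lower and the S phase list to 1 higher. It ended no call on a histone gene. Outside the block, the 3′ processing list had 0 to 1 higher when libraries were left out, and the S phase list had 1 higher with library totals, 0 to 1 higher and 16 to 28 lower when libraries were left out. The call on Hist1h1a ended with no filter, DESeq2 or limma-voom, those on Hist1h2ai, Hist1h2bk and Hist2h2be with library totals, and that on Hist2h2be also with no filter; Hist1h2ae was called lower with size factors, DESeq2 or no filter. The cause was not tested. The sums by annotated 3′ end, with alternatives added after seeing the data, moved by less than the spread between replicates under each setting run. Low counts limit single genes: 26 of the 37 tested members had under 400 counts over 8 libraries.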
